A study of Mus musculus with 2 samples.

Results

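The cytosolic ribosomal protein genes encode the protein part of the cell's ribosomes, and they were described here by the EP300 peaks at and around their starts in newborn mouse stomach. Members were the protein-coding genes of GENCODE release M21 whose symbol begins with Rpl or Rps and a digit, together with Rplp0, Rplp1, Rplp2, Rpsa and Fau, leaving out the Rps6k kinases, Rps19bp1, Rpl7l1 and pseudogene symbols. The rule gave 85 members of 21911 protein-coding genes. Of these, 48 belong to the large subunit outside its stalk, 34 to the small subunit and 3 to the stalk. A core of 78 members encodes the usual ribosomal proteins, and 7 members are paralogs, second copies that differ from the core gene in sequence and often in tissue of use.

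A ribosome has a small subunit, which reads the mRNA, and a large subunit, which joins amino acids and lets the new chain out through an exit tunnel. Its proteins are made in matched amounts by genes that lie scattered over the genome, and their promoters are known for a short run of pyrimidines at the transcription start, the TOP tract, which couples translation of the mRNA to growth signals. EP300 is a histone acetyltransferase and co-activator that other DNA-bound proteins bring to promoters and enhancers.

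Chromatin bound by EP300 was immunoprecipitated and sequenced from the stomach of B6NCrl mice at postnatal day 0, with no genotype or treatment named in the labels. The 2 libraries form 1 group and are numbered as biological replicates 1 and 2, but both name a single biosample and a single donor, and their spread may therefore be technical. The stomach was taken as a whole tissue, so signal cannot be assigned to a cell type. The sex was not collected.

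The files give peaks and no read counts, so the depth of the libraries is unknown. The strength of a peak is its signal value, as the authors' peak caller wrote it, and it stands on a separate scale in each list. The optimal list holds the 7737 peaks that the authors kept from the pooled reads by the irreproducible discovery rate (IDR), a measure of how well the ranks of peaks repeat between lists of peaks. A conservative IDR list holds 6974 peaks, and the list of each replicate holds 300000. For tissue markers, a summit of an optimal peak lay within 50 kb of the start for 6 of 7 genes of stomach mesenchyme and muscle and 4 of 11 of stomach epithelium, beside 34.9% of all protein-coding genes, so the epithelial count stands at the share of all genes. The same held for none of 4 liver genes and none of 3 forebrain genes, but also for 2 of 4 intestine genes, 1 of 3 heart genes and 1 of 3 blood genes.

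Most of the strongest EP300 peaks at these genes held an 8-letter element near their summit, TCTCGCGA, which the factors BANP and ZBTB33 (Kaiso) are known to bind. The element stands in capitals in the following stretches of 30 bases upstream of RefSeq starts, shown because these 8 members are among the 12 with the highest promoter signal and the element lay within 14 bp of their summit. All are written from 5′ to 3′ on the strand of the gene, from RefSeq on GRCm38.p6. On the strand of a gene the element can read TCTCGCGA or TCGCGAGA, its reverse complement. Where both forms overlap, capitals mark a single form.
Rps19, chr7:24884554-24884583, plus strand: ggtttagccgcTCTCGCGAgcactccgaaa
Rpl26, chr11:68901529-68901558, plus strand: cgctccgagacTCTCGCGAgatctcgcggc
Rps3a1, chr3:86142676-86142705, minus strand: gccagctagtgTCGCGAGAttcttaaagcc
Rps15a, chr7:118116195-118116224, minus strand: tgaccatgaagTCTCGCGAtagcgcttccg
Rpl10a, chr17:28328523-28328552, plus strand: taacgggcaacTCTCGCGAgaacgcgggct
Rpl12, chr2:32961647-32961676, plus strand: gggccagcggtTCTCGCGAgagctgagctt
Rpl7a, chr2:26910744-26910773, plus strand: agggcgcctgcTCTCGCGAtatctgcggcc
Rps6, chr4:86857398-86857427, minus strand: gccggctgttcTCGCGAGAacttagagcgc

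EP300 peaks lay at the starts of many ribosomal protein genes. An optimal summit, the point of highest signal in a peak, lay within 1 kb of the gene start for 45 of 85 members (52.9%, exact 95% binomial interval 41.8 to 63.9%) and for 2213 of 21911 protein-coding genes (10.1%). Within 50 kb the counts were 62 of 85 members (72.9%, 62.2 to 82%) and 7652 protein-coding genes (34.9%). Such intervals cover counting error only, and genes are not independent replicates. Around the members lay 144 distinct summits within 50 kb, of which 61 lay within 1 kb.

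The shares of the subunits were close. A promoter summit, one within 1 kb, was found for 26 of 48 large subunit members (54.2%, 39.2 to 68.6%) and 19 of 34 small subunit members (55.9%, 37.9 to 72.8%). Each share lay inside the other's interval. None of the 3 stalk genes, Rplp0, Rplp1 and Rplp2, whose products recruit the elongation factors, had one in the optimal list. Rpl5 and Rpl11, whose proteins join 5S RNA in a particle that also holds back the p53 inhibitor MDM2, had no optimal summit within 50 kb. Of 7 genes for proteins around the exit tunnel, 4 had one within 1 kb, namely Rpl4, Rpl23a, Rpl26 and Rpl35. All 7 had a summit within 50 kb (exact 95% interval from 59%), beside 72.9% of all members and 34.9% of all genes. At Rpl4, Rpl22 and Rpl39, however, the only such summit lay nearest to the start of another gene, and at Rpl35 the strongest did. Among genes for the mRNA-facing side of the small subunit, Rps26 and Rps3 had a promoter summit and Rps2 and Rpsa did not. Of the pair made as fusions with ubiquitin or a ubiquitin-like protein, Rps27a had one and Fau did not.

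The core genes had a promoter summit in 42 of 78 cases (53.8%) and the paralogs in 3 of 7 (42.9%, 9.9 to 81.6%). The paralogs with one were Rpl22l1, Rpl36al and Rps27l, at signals of 32.4, 38.0 and 34.4. The paralogs without one were Rpl3l, known from striated muscle, Rpl10l, known from testis, Rpl39l and Rps27rt.

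**Figure D1:**
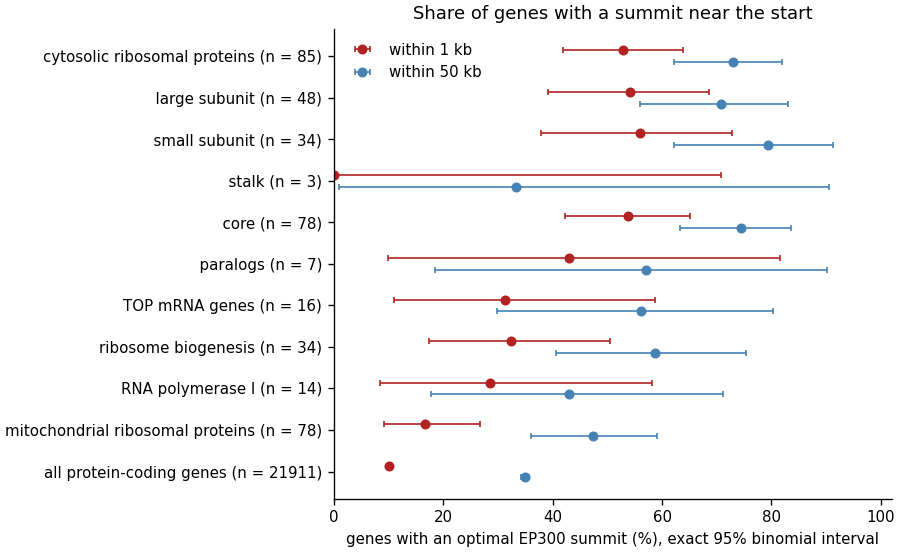
Share of genes with an optimal EP300 summit within 1 kb (red) and within 50 kb (blue) of the gene start, in percent, for the ribosomal protein genes and their groups, related gene lists and all protein-coding genes; bars are exact 95% binomial intervals. The ribosomal protein genes stand at 52.9% within 1 kb, against 10.1% of all protein-coding genes, and the large and small subunit at 54.2% and 55.9%.

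The excess over all genes was seen in every list. Within 1 kb, 45 members had a summit of the conservative list, against 9.92% of protein-coding genes. Among as many strongest peaks of replicate 1 as the optimal list holds, 47 members had a promoter summit, against 12.2% of genes. In replicate 2 the same count was 48 members, against 11% of genes. Of the members, 36 had a promoter summit in the optimal list, the conservative list and both replicates.

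The members' promoter peaks also had a higher median signal. The strongest promoter peak of a member had a median signal of 53.2 (quartiles 36.0 and 98.5, n = 45), against 37.7 over all genes with a promoter summit (quartiles 29.0 and 55.8, n = 2213). Of the 45 members, 39 exceeded 32.3, the median of all promoter summits, as did the strongest promoter summit of 63.8% of all genes that had one. Among the 300 strongest optimal peaks, a summit within 1 kb was found for 14 members (16.5%), against 1.36% of protein-coding genes. Among the 100 strongest it was found for 9 members, against 0.502% of protein-coding genes.

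The peak of Rps19, a small subunit protein whose human gene is mutated in Diamond-Blackfan anaemia, was the strongest. Its signal was 129.3 in replicate 1, 136.9 in replicate 2 and 267.3 in the optimal list, where it ranked 21. It spanned mm10 chr7:24884436-24884734, with the summit 191 bp downstream of the GENCODE gene start, in an exon. From the nearest RefSeq start this summit lay at -30 bp. Summit positions in the gene descriptions that follow are also relative to the GENCODE gene start. Rpl26, an exit tunnel protein, followed with 83.7 in replicate 1, 129.0 in replicate 2 and 219.9 in the optimal list. Its peak (chr11:68901395-68901642) had its summit 49 bp upstream of the start. Both peaks stood among the 100 strongest of each replicate's list.

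Rpl32, a large subunit protein, had 95.9 in replicate 1, 111.3 in replicate 2 and 205.9 in the optimal list. Its peak (chr6:115808741-115809033) had the summit 135 bp upstream of the start. Rps3a1, a small subunit protein at the mRNA exit, had 112.9 in replicate 1, 92.9 in replicate 2 and 203.4 in the optimal list. Its peak (chr3:86142560-86142795) had the summit 21 bp downstream, in an exon. In this pair the order of the unscaled replicate values was opposite, and in each gene the higher value was under 1.5 times the lower.

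Rps15a, of the small subunit, had 97.8 in replicate 1, 96.6 in replicate 2 and 188.8 in the optimal list (chr7:118116089-118116379, summit 19 bp upstream). Rpl10a, of the L1 stalk of the large subunit, had 89.7, 90.0 and 183.5 in the same order of lists (chr17:28328398-28328666, summit 52 bp downstream, in an exon). Rpl12, at the base of the stalk, had 82.3, 94.1 and 179.4 (chr2:32961535-32961782, summit 91 bp downstream, in an exon). The summit of Rpl12 lay only 36 bp from the start of Lrsam1, an opposite-strand neighbour that encodes a ubiquitin ligase.

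Rpl7a, a large subunit protein, had 98.3 in replicate 1, 81.7 in replicate 2 and 177.8 in the optimal list (chr2:26910639-26910927, summit 4 bp downstream, in an exon). Rps7, of the small subunit, had 81.3 in replicate 1 and 158.2 in the optimal list (chr12:28635740-28635892, summit 80 bp downstream, in an exon). With a width of 153 bp its optimal peak was the narrowest of the members', and it held no summit of a replicate 2 peak. The replicate 2 peak that overlapped it had a signal of 82.5, with its summit 29 bp from the optimal one.

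Rps6, the substrate of the S6 kinases, had 71.0 in replicate 1, 75.4 in replicate 2 and 140.5 in the optimal list (chr4:86857131-86857690, summit 1 bp downstream). Rpl4, an exit tunnel protein, had 55.9, 72.9 and 132.7 in the same order of lists (chr9:64173114-64173378, summit 152 bp upstream). The start of Zwilch, a mitotic checkpoint gene, was nearer to that summit, at 119 bp. Rpl23a, at the tunnel exit, had 41.0, 55.1 and 98.5 (chr11:78183317-78183876, summit 13 bp upstream). The other 2 members within the 300 strongest were Rps23, of the decoding centre, with 39.1, 57.7 and 98.0, and Rpl21 with 43.1, 47.0 and 81.9. These 14 members had at least 39.1 in replicate 1 and at least 47.0 in replicate 2.

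**Figure D2:**
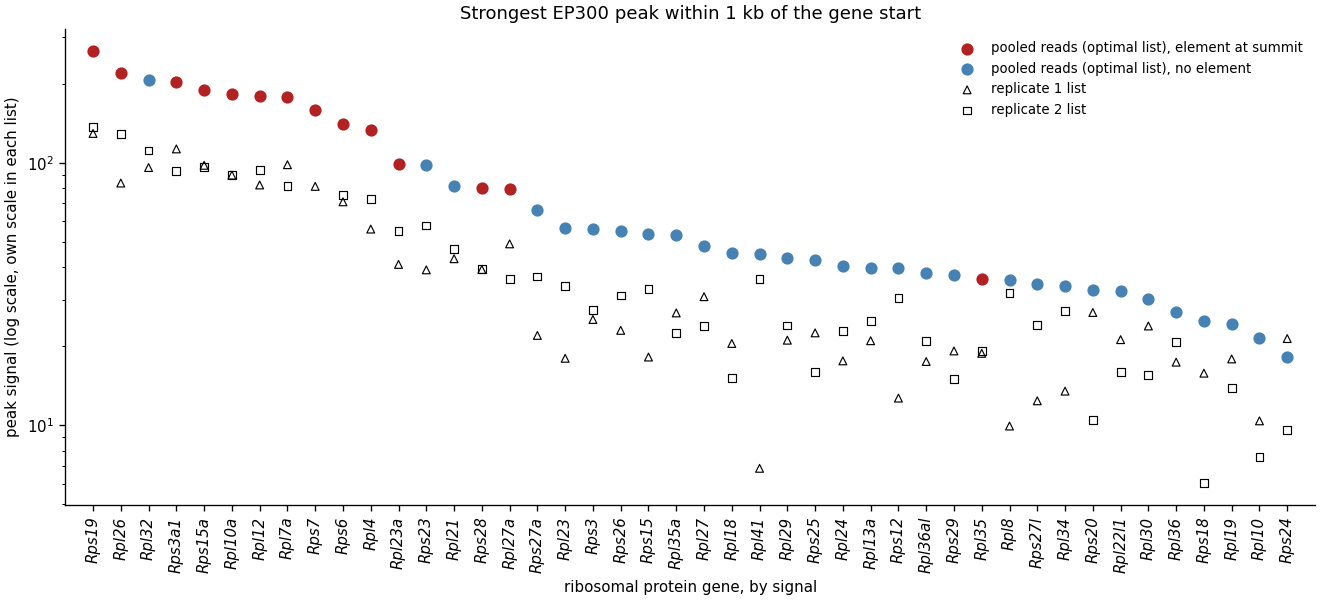
Signal of the strongest promoter peak of 44 of the 45 ribosomal protein genes that had one, on a log axis, in order of the optimal list. The gene not shown, 1 in number, is outside the 12 highest. Filled circles give the optimal list (red where the BANP/ZBTB33 element lies within 100 bp of the summit, blue where it does not). Triangles give replicate 1 and squares replicate 2, and each list has a scale of its own. Values in the optimal list run from 267.3 at Rps19 to 18.2 at Rps24, and 11 of the 12 highest carry the element.

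The remaining 31 members with a promoter peak had optimal signals from 80.1 down to 18.2. Rps28 had 80.1, Rpl27a 79.1, Rps27a 66.2, Rpl23 56.2 and Rps3 55.8. Rps26 followed with 54.9, Rps15 with 53.6, Rpl35a with 53.2 and Rpl27 with 48.0. Rpl18, Rpl41, Rpl29, Rps25 and Rpl24 lay between 45.4 and 40.6. Rpl13a, Rps12, Rpl36al, Rps29 and Rpl35 lay between 39.9 and 36.0. Rpl8, Rps27l, Rpl34, Rps20 and Rpl22l1 lay between 35.8 and 32.4, and Rpl30, Rpl36, Rps18, Rpl19, Rpl10 and Rps24 between 30.3 and 18.2. In 14 members more than 1 summit lay within 1 kb, with 3 each at Rpl27a and Rpl19. Neighbouring summits of a promoter were 199 to 396 bp apart (median 204.0), and all 16 neighbouring pairs of peaks overlapped. Of the members' strongest peaks, 10 were narrower than the full width of 560 bp, and these were 10 of the 11 with the highest signal, Rps6 being the exception.

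The optimal peak of nearly every member held a summit of each replicate list. For 44 of 45 members both replicate lists held a peak with its summit inside the optimal peak, and the exception was Rps7. Each replicate list runs to 300000 peaks, so such a match is a weak measure of agreement. A place in the optimal list did not require a high rank in both libraries. The lowest matching peak ranked 98352 in replicate 1 and 133790 in replicate 2. Among as many strongest peaks as the optimal list holds, the matching peak was found for 39 members in replicate 1 and 40 in replicate 2. The summits of the 2 replicates lay a median of 34.5 bp apart, at most 50 bp apart in 23 members and 284 bp apart at Rps24. As deposited, with each list on its own scale, replicate 2 had the higher signal in 28 members and replicate 1 in 16. The ratio of replicate 1 to replicate 2 had a median of 0.919. These counts and ratios include any difference in scale between the lists. Across the 44 members the log2 signals had a Pearson correlation of 0.773 and a Spearman correlation of 0.649. This describes genes within the same pair of libraries.

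The replicates were close at the strong peaks and furthest apart at weak ones. In 30 members the unscaled replicate signals differed by less than 1.5-fold. The widest ratio was that of Rpl41, the smallest ribosomal protein, with 6.86 in replicate 1 and 36.2 in replicate 2. Rpl8, near the peptidyl transferase centre, had 9.94 in replicate 1 and 32.0 in replicate 2. Rps18 showed the opposite order, with 15.8 in replicate 1 and 6.01 in replicate 2, and so did Rps20 with 26.9 and 10.5 and Rps24 with 21.4 and 9.57. The peak of Rpl41 ranked 98352 in replicate 1 and that of Rps18 ranked 133790 in replicate 2, so each rests mainly on the other library.

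**Figure D3:**
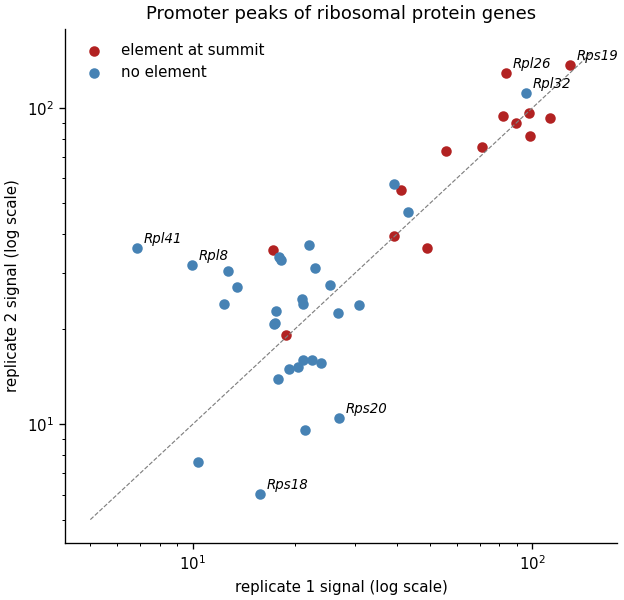
Signal in replicate 1 (x axis) and replicate 2 (y axis) of the promoter peaks of 44 ribosomal protein genes, both on log axes. Red points carry the BANP/ZBTB33 element within 100 bp of the optimal summit and blue points do not. The dashed line marks equal values as deposited, and each list has a scale of its own. Strong peaks such as Rps19 (129.3 and 136.9) lie near the line, and Rpl41 (6.86 and 36.2) and Rps18 (15.8 and 6.01) lie far from it on opposite sides.

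The summits were centred on the starts. Relative to the start of the gene in GENCODE, the members' strongest promoter summits had a median position 53 bp downstream, from 609 bp upstream to 392 bp downstream, and 36 of 45 (80%) lay within 200 bp. Over all protein-coding genes with a promoter summit the median was -38 bp and 59.4% lay within 200 bp. Downstream of the gene start lay 66.7% of the members' summits and 42.7% of those of all genes. In the annotation 25 of the members' summits fell in an exon, 5 in an intron and 15 upstream of the gene.

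The side of the start depended on which start was taken. Relative to the nearest RefSeq start, which was at hand for 34 of the 45 members, the median was -40.5 bp, with 22 summits upstream and 12 downstream. For the same 34 members it was 52.5 bp relative to the GENCODE gene start. Among the strongest members described above as downstream, the RefSeq distance was -30 bp at Rps19, -13 bp at Rps3a1 and -42 bp at Rpl10a. It was -62 bp at Rpl12, -39 bp at Rpl7a and -44 bp at Rps6, and it stayed at 80 bp at Rps7. At Rpl18 and Rps24 the summit counted as a promoter summit lay at -3223 and -3569 bp from the RefSeq start.

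**Figure D4:**
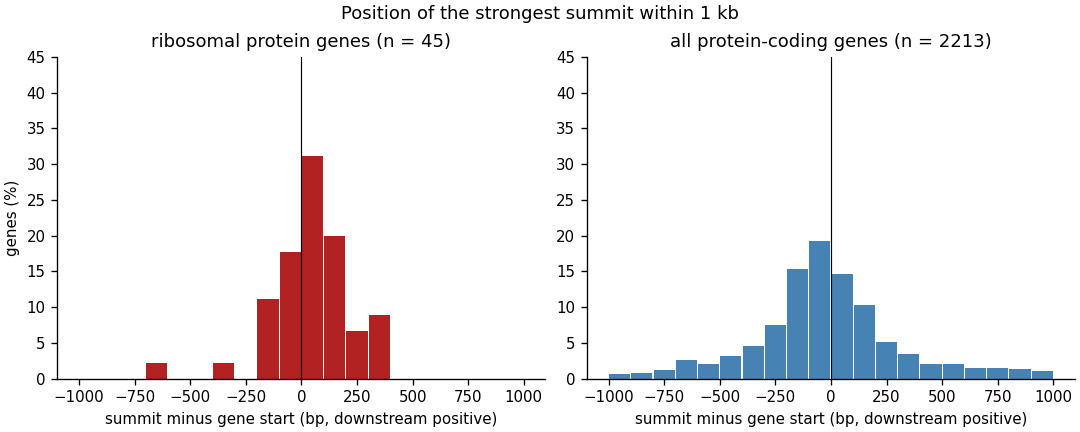
Position of the strongest summit within 1 kb relative to the GENCODE gene start, in bp with downstream positive, as the percentage of genes per 100 bp, for 45 ribosomal protein genes (left) and 2213 protein-coding genes (right). The ribosomal protein genes have a median of 53 bp with 80% within 200 bp, and all genes a median of -38 bp with 59.4% within 200 bp.

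For 39 of the 45 members no other protein-coding start was nearer to the summit than their own. The other 6 were Rpl12 (Lrsam1), Rpl4 (Zwilch), Rps27a (Clhc1), Rpl35a (Iqcg), Rps25 (Trappc4) and Rpl35 (Arpc5l), where the neighbour in parentheses started nearer. Another protein-coding start lay within 1 kb for 17 members, of which 11 had a promoter summit. Of the 68 members with no such neighbour, 34 had one. Many ribosomal protein genes carry small nucleolar RNAs in their introns. A promoter summit was found for 16 of 30 members that host one and 29 of 55 that do not.

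The element TCTCGCGA, searched in these letters on both strands, lay within 100 bp of the strongest promoter summit in 15 of 45 members (33.3%) and in 225 of 1840 strongest promoter summits of other genes (12.2%). With weaker summits of the same promoters counted too, the shares were 15 of 61 member summits (24.6%) and 234 of 2542 others (9.21%). Its centre was a median of 14 bp from the members' summit, and within 30 bp in 13 of the 15. The 12 strongest members held it except for Rpl32, and at Rpl4 it lay 86 bp from the summit. Carriers with weaker peaks included Rps28, Rpl27a and Rpl35. At the gene starts themselves, from 250 bp upstream to 50 bp downstream, 12 of 85 members (14.1%) and 1.38% of all protein-coding genes held it.

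The element went with strong signal in the members and elsewhere. Members' summits with it had a median signal of 158.2 (36.0 to 267.3, n = 15) and those without it 40.2 (18.2 to 205.9, n = 30). In replicate 1 the medians were 81.3 with the element and 20.8 without it, and in replicate 2 they were 78.6 (n = 14) and 23.9. For the strongest promoter summits of other genes the medians were 104.5 with the element and 34.6 without it. Among the 300 strongest peaks, 11 of 14 member summits (78.6%) and 143 of 229 strongest promoter summits of other genes (62.4%) held the element. Below them the counts were 4 of 31 (12.9%) for the members and 82 of 1611 (5.09%) for other genes. Away from promoters 25 of 5130 summits held it (0.487%).

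Starts with the element mostly had a peak. Of 12 members with TCTCGCGA within 100 bp of the gene start, 11 had a promoter summit (91.7%), against 191 of 237 other genes with the element (80.6%). Among members without the element there, 34 of 73 had a promoter summit (46.6%), against 9.16% of other genes without it. In both classes the members' share was the higher one, and the difference was not tested.

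The other motifs differed between members and other genes by smaller margins in percentage points. CCGGAAG, the core site of ETS factors, lay within 100 bp of the strongest summit in 9 of 45 members (20%) and in 14.8% of other genes. For AAGATGG, bound by YY1, the shares were 11.1% and 6.2%, for the E-box CACGTG 13.3% and 5.92%, and for the GGGCGG box of SP factors 44.4% and 42.8%. CCAAT, bound by NF-Y, was found in 20% of members and 26.1% of other genes. The cAMP response element TGACGTCA stood at 2 member summits (4.44%) and 1.52% of those of other genes, which as a ratio is close to that of TCTCGCGA but rests on 2 members. TATAAA stood at 2 member summits (4.44%, against 4.67%), and the NRF1 site GCGCATGC at 1 (2.22%, against 1.9%).

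**Figure D5:**
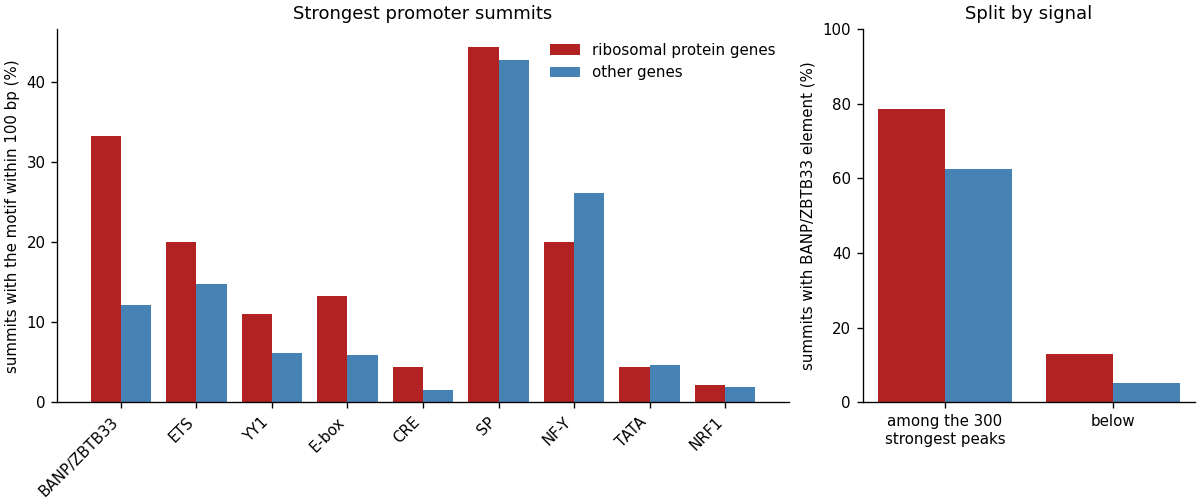
Left, share of summits with each motif within 100 bp, in percent, for the strongest promoter summits of 45 ribosomal protein genes (red) and 1840 of other genes (blue); right, the same for the BANP/ZBTB33 element among the 300 strongest peaks and below them. The element was held by 33.3% of the members' summits and 12.2% of the others, and by 78.6% and 62.4% among the 300 strongest.

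The motifs at the starts did not all separate members with a peak from those without one. The ETS site was held between 250 bp upstream and 50 bp downstream by 12 of 45 members with a promoter summit and 11 of 40 without one, and by 10.8% of all genes. The element TCTCGCGA was held by 11 of 45 with a summit and 1 of 40 without one. A TOP-like tract was a C followed by at least 4 pyrimidines within 15 bp of the start. It was found at 45 of 65 members with a RefSeq start at hand (69.2%) and 41.4% of the 16522 genes with one. Measured at the GENCODE gene starts, it was found at 46 of 85 members (54.1%) and 41.8% of all genes. There, 23 of 45 members with a summit and 23 of 40 without one held it. Members' starts were richer in CpG, with a median observed over expected ratio of 0.83, against 0.524 for all genes. Among genes with a CpG-rich start, a promoter summit was found for 25 of 40 members and 17.6% of all genes.

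The starts themselves are shown from 20 bases before to 10 after the RefSeq start, for the 3 strongest members at hand and for the first 3 core members in alphabetical order without a promoter summit. Capitals mark the longest TOP-like tract that begins within 15 bp of the start. They are written from 5′ to 3′ on the strand of the gene, from RefSeq on GRCm38.p6.
Rps19, chr7:24884572-24884601, plus strand: agcactccgaaatctcgcgagactcgacgc
Rpl26, chr11:68901546-68901575, plus strand: gagatctcgcggcaacttacagaaccggaa
Rps3a1, chr3:86142659-86142688, minus strand: gattcttaaagccggaagggcgaaagagca
Fau, chr19:6057927-6057956, plus strand: ggacgtgcgcgcccccaCTTCTTCCTCTTT
Rpl11, chr4:136053384-136053413, minus strand: gcctcctgacccataaggccacggggccgg
Rpl13, chr8:123102330-123102359, plus strand: gtcacttCCCTTTCgcctgattttgattgg
Of these 6, Fau and Rpl13 held such a tract and lacked a promoter summit.

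Members with no optimal promoter summit could still have a peak in the longer lists, which run to 300000 peaks and include very weak ones. Of these 40 members, 28 had some peak of the replicate 1 list within 1 kb, against 38.5% of all protein-coding genes without an optimal promoter summit. In the replicate 2 list 21 did, against 33% of such genes, and 17 had one in both lists, against 21.1%. In the list of the pooled reads 27 did, against 34.3%. Of the 40, 17 had an optimal summit between 1 and 50 kb away and 23 had none within 50 kb.

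The count also depended on the start used. With any protein-coding transcript start in place of the gene start, 49 members had a promoter summit, against 11.1% of protein-coding genes. The 4 gained were Rpl17 at a signal of 81.7, Rps2 at 40.7, Rps10 at 34.8 and Rps14 at 32.7, with summits 2 to 92 bp from a transcript start.

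The lists also disagreed on single members. Rpl37, a large subunit protein, had a peak of 19.3 in replicate 1 and 22.8 in replicate 2, within the strongest peaks of each and in the conservative list, but none in the optimal list. The stalk gene Rplp2 was in the same position. Rpl37a and Rps27 were among the members with a promoter summit in the conservative list and not in the optimal. Both also had one among the strongest peaks of replicate 2. Rpl10, Rpl41, Rps18, Rps24 and Rps27l had one in the optimal list and not in the conservative, and 40 members had one in both.

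Among core members with no optimal summit within 50 kb, the strongest peak within 1 kb was often unequal between libraries. Rpl11 had 26.6 in replicate 1, at 206 bp from the gene start, and 5.2 in replicate 2, at -614 bp, which are different places. Rpl36a had 12.3 in replicate 1, at 19 bp, and 11.6 in replicate 2, at -177 bp. Rpl37a had 11.7 in replicate 1, at 134 bp, and 16 in replicate 2, at 84 bp. Rpl28, Rpl31 and Rpl38 had 19.1, 20.8 and 11.1 in replicate 1 and no listed peak there in replicate 2. Further members with no summit within 50 kb included Rpl5, Rpl6, Rpl7, Rpl9, Rpl10l, Rpl39l, Rplp0, Rplp1, Rps4x, Rps9, Rps27, Rps27rt and Rpsa.

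Optimal summits farther from the members' gene starts mostly lay nearer to the gene starts of other genes. Of the 17 members with a summit between 1 and 50 kb only, the strongest lay nearest to the member's own gene start for Rpl13, Rpl17 and Rps2, and any summit did for 5. At Rps10 and Rps14 the strongest lay nearest to the gene start of another gene. It was, however, only 53 and 92 bp from a transcript start of the member. Rps16, of the small subunit, had the most, with 10 summits in 7 separate regions within 50 kb and none within 1 kb. The strongest of them had 105.3 in replicate 1, 113.2 in replicate 2 and 217.3 in the optimal list (chr7:28338625-28338936). It lay at -11867 bp from the start of Rps16, nearest to the start of Supt5, an elongation factor gene, and 1 of the 10 summits lay nearest to Rps16.

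Rpl41 had 7 summits within 50 kb and Rps28 had 6. In both, the strongest was the peak at the member's own promoter, with 45.1 at Rpl41 and 80.1 at Rps28 in the optimal list. Next came members with 5 each, namely Rpl10a, Rpl18, Rpl23a, Rpl27, Rps18 and Fau. At Rpl10a, Rpl18, Rpl23a and Rpl27 the strongest of the 5 was the promoter peak described above. At Rps18 the strongest of these had 17.6 in replicate 1, 28.7 in replicate 2 and 47.6 in the optimal list, and lay nearest to Zbtb22. At Fau it had 16.5, 20.2 and 32.9 in the same order, and lay nearest to Syvn1. In 12 cases 1 summit lay within 50 kb of 2 members that are neighbours, such as Rpl36al and Rps29, Rpl41 and Rps26, or Rpl3l and Rps2.

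Other genes of ribosome production had promoter summits in the following shares, against the 52.9% of the cytosolic ribosomal proteins, and the differences were not tested. Among 34 ribosome biogenesis genes, 11 had one (32.4%), led by Nop58, a small nucleolar RNA-binding protein, at a signal of 114.9. Among 16 genes of other TOP mRNAs 5 had one (31.2%), and among 14 genes of RNA polymerase I and its factors 4 did (28.6%), led by Polr1c at 91.4. Of 78 mitochondrial ribosomal protein genes, 13 had one (16.7%, 9.18 to 26.8%), with Mrps5 highest at 81.2, and none was among the 300 strongest peaks. Rack1, a small subunit protein under another symbol, had a promoter summit at 30.3.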

How the data were processed

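Peaks of EP300 ChIP-seq came as deposited lists in narrowPeak layout on mm10. The signal value is that of the authors' peak caller and was not rescaled between lists. The deposited IDR and q columns, kept as a score, were not used for any value here. Per the file headers and readme texts, the replicate lists came from 1 alignment each with further files, of which 1 was shared, and the IDR lists from the pooled and both replicate lists. The aligner and the caller remain unnamed, and how reads that match several copies of a gene were handled was not given in the sources used here.

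Genes were those of GENCODE M21, counted once per symbol. Distances ran from summit to gene start. A replicate's signal is that of its strongest peak with the summit inside the optimal peak. Intervals of shares are exact 95% Clopper-Pearson intervals. Motifs were searched in 100 bp on each side of a summit. A CpG-rich start had an observed over expected ratio of at least 0.6 and a GC content of at least 55%. Python 3.11.15 with pandas 2.3.3, numpy 2.4.6, scipy 1.17.1 and pysam 0.24.0 was used, checked on simulated data.

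No test was made: there is 1 group, and the members, lists and motifs were chosen with earlier results of these data known. Fully described are the 12 members with the strongest promoter peak and those with the most summits within 50 kb, including those tied at the last place. The members gained or lost between lists, replicates or starts, the further carriers of TCTCGCGA and genes of other lists were named after their values were seen. Some single genes enter the counts but are not reported here by name. Rps4l was not in the annotation. Longer upstream stretches are not printed. Alternatives were the conservative list, each replicate's list, the pooled list, other distances, starts and windows. The core members, CpG-rich starts, RefSeq starts, the strongest summits of other genes as the motif comparison and other motif settings were added after seeing the data.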

Additional observations from a re-analysis of the deposited data

How the results depend on the processing

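No paired analysis was possible because the study has 1 group. Over 68 alternatives, 59 left the value within the margin set for it, 8 moved it further and 1 turned its sign. Members with a promoter summit numbered 39 to 54 under the other lists, distances and start definitions tried. Of those added after seeing the data, core members gave 42, RefSeq starts 36 and CpG-rich starts 25, with 1407 of all genes, because fewer genes were counted. Leaving out either replicate gave 47 and 48. Members within 50 kb numbered 45 to 73 under the other lists and start definitions. There were 52 within 10 kb and 74 within 100 kb. All genes numbered 3445 within 10 kb, and 3596 within 50 kb when each summit was given to the nearest start alone. The median position of 53 bp became 69 bp in the conservative list, 48 and 52.5 bp without 1 replicate, 4 bp with any transcript start and -40.5 bp with RefSeq starts, since the start itself moves. Members with the E-box at the start numbered 7 in place of 11 with 100 bp on each side. The element TCTCGCGA stood at 13 to 15 member summits in every setting, and its core letters TCGCGA at 16. Depth is unknown, so a member without a peak cannot be told from one below detection.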
